A study of Mus musculus with 6 samples.

Results

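The NMDA receptor is a glutamate-gated calcium channel of 4 subunits, and 6 of the genes that encode its subunits were followed here in cultured cerebellar granule neurons (CGNs) given an inhibitor of EZH2. The 6 genes, Grin1, Grin2a, Grin2b, Grin2c, Grin2d and Grin3a, were taken by symbol from the 55341 genes counted in each of 6 RNA-seq libraries, and all 6 were among the 16729 genes that passed the filter on low counts. None of them passed through one group alone, since the lowest count of any of them in any library was 34. Libraries came from CGNs of CD1-IGS mice, dissected at P6 to P8, isolated as granule neuron progenitors on a Percoll gradient and given AraC at DIV2 against dividing cells. The 3 control libraries came from cultures given the vehicle DMSO on day 3 in vitro, and the 3 treated libraries from cultures given GSK-126 on the same day, with RNA taken at DIV5 as the methods section gives it. GSK-126 inhibits EZH2, which, like EZH1, is a methyltransferase that places H3K27me3, a histone mark of silenced genes. Neither group carries a mutation or transgene, and a replicate is a culture of pooled litters, so no value belongs to a single animal. The labels name the source as cerebellum and number the replicates 1 to 3 in each group. The comparison asks how the subunit genes, whose levels shift as CGNs mature, stand when EZH2 is inhibited in young postmitotic neurons.

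Every NMDA receptor needs the obligatory subunit GluN1 (Grin1), which binds the co-agonist glycine or D-serine. It is joined by GluN2 subunits (GluN2A to GluN2D, from Grin2a, Grin2b, Grin2c and Grin2d), which bind glutamate and set channel kinetics and magnesium block, or by GluN3 subunits (Grin3a, Grin3b), which bind glycine and lower calcium entry. In the cerebellum, young granule neurons are known for GluN2B, and maturing ones replace it with GluN2A and with GluN2C, a subunit of low conductance. GluN2D is an early subunit of other neurons and of interneurons.

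Start site sequences were read for the 3 members that RefSeq's promoter table (GRCm38.p6) holds, which are Grin1, Grin2c and Grin2d. Of these 3, Grin1 and Grin2c were called lower in the paired comparison below and Grin2d was not. A link between sequence and change was not tested. Each line gives the 250 bases before the start site, 5′ to 3′ on the minus strand, at chr2:25319188-25319437 for Grin1, chr11:115267244-115267493 for Grin2c and chr7:45866682-45866931 for Grin2d. Capitals mark GGGCGG, the core of the GC box, searched on both strands.
Grin1: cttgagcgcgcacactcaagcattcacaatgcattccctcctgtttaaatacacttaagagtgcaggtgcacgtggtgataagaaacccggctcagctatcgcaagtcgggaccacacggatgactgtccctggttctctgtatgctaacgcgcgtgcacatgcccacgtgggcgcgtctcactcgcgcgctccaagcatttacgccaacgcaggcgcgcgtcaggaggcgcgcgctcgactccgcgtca
Grin2c: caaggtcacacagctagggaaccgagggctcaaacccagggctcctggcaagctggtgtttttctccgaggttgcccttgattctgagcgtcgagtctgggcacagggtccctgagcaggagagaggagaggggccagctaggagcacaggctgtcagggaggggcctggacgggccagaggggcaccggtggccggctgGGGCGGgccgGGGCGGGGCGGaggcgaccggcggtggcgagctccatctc
Grin2d: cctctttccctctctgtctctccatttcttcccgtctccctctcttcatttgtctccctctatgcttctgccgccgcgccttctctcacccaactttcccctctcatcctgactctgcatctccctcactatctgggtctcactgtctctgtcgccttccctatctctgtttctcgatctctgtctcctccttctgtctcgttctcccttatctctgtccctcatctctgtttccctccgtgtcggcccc
The Grin2c stretch held 3 matches to GGGCGG, of which the last pair overlap by a single base, and the Grin1 and Grin2d stretches held 0. Of 32851 promoters of the same length, 32.7% held at least 1 match, so a match is common. CpG dinucleotides numbered 27 before Grin1, 15 before Grin2c and 9 before Grin2d, against a median of 6 (quartiles 2 and 16) over all promoters. The Grin2d stretch lies inside the longer gene model of GENCODE M21, which starts upstream of the RefSeq start.

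With the libraries taken as independent, none of the 6 genes was called, at 0% of all genes called lower and 0% called higher by edgeR's quasi-likelihood test (Benjamini-Hochberg adjusted p under 0.05). At an unadjusted p under 0.05, 369 genes were lower and 296 higher, and 1 of the 6 members was among them. DESeq2 without a block also called 0 members, with 0.0141% of genes called lower (2 genes) and 0.134% called higher (19 genes). Libraries with the same replicate number deviated together from their group means, so each GSK-126 library was also set against the DMSO library of its own number, by adding the replicate number to the fit as a block. In this paired fit Grin1, Grin2a and Grin2c were called lower, 3 of 6 members, against 5.09% of all genes tested. No member was called higher, against 3.35% of all genes. The median log2 fold change of the 6 was -0.38 in the paired fit, beside -0.0056 over all genes tested. Levels were lower with GSK-126 in each of the 3 pairs for 4 members (Grin1, Grin2a, Grin2c and Grin3a), which 22.8% of all genes also did. Since the RNA is from whole cultures, fewer cells of a type and less RNA per cell cannot be told apart in any of these values.

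**Figure D1:**
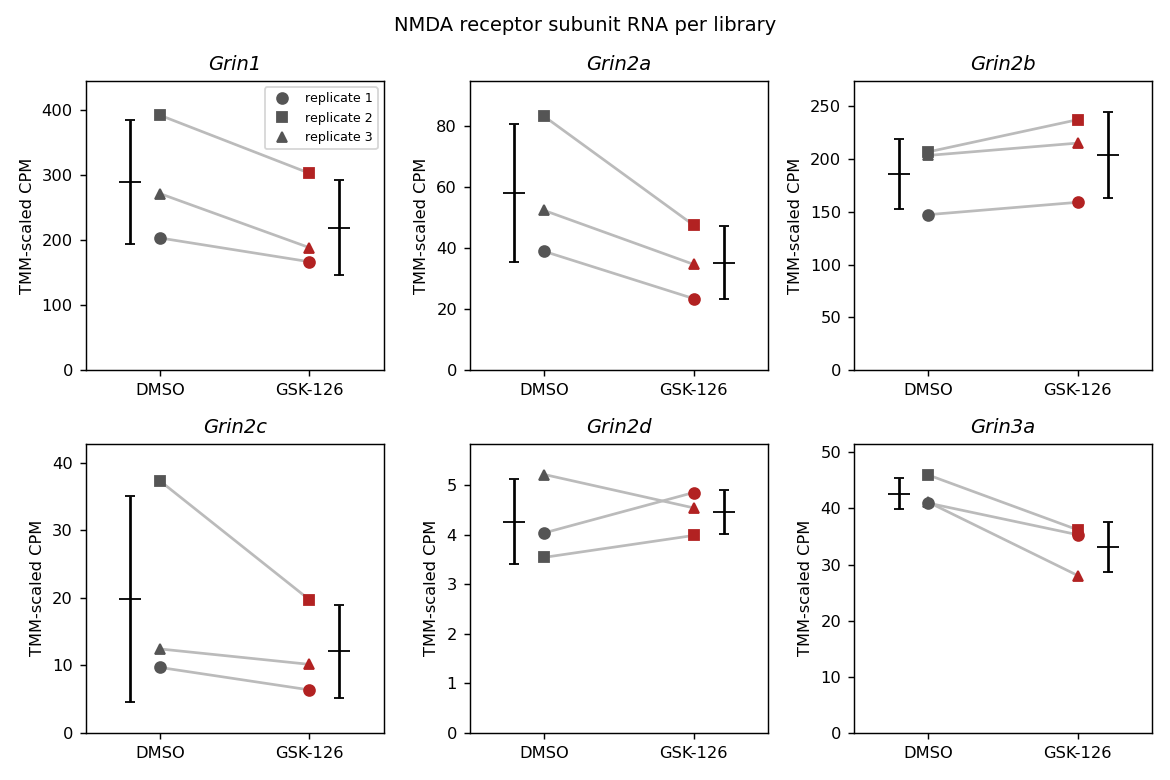
Each panel plots the level of 1 subunit gene (TMM-scaled CPM, axis from 0) in the 3 DMSO and 3 GSK-126 libraries, with grey lines joining libraries of the same replicate number and black bars giving mean ± SD. Grin2a goes down along all 3 lines, Grin2b goes up along all 3, and replicate 2 is the highest DMSO library for Grin1, Grin2a, Grin2b, Grin2c and Grin3a.

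Grin1, the subunit that every receptor contains, was the most abundant member by count in 5 of 6 libraries, with Grin2b above it in GSK-126 replicate 3. Its level, in counts scaled by TMM per 1000000 counts (CPM), was 203, 392 and 272 in DMSO replicates 1, 2 and 3, and 167, 303 and 189 in GSK-126 replicates 1, 2 and 3. The groups overlapped, and replicate 2 was the highest library of both groups, 1.65 times the mean of the other DMSO libraries and 1.71 times that of the other GSK-126 libraries. The mean was 289 ± 95.6 CPM over DMSO libraries and 219 ± 73.2 CPM over treated ones (SD, n = 3). Grin1 fell by 0.29, 0.37 and 0.53 on the log2 scale in pairs 1, 2 and 3. The fold change on the log2 scale was -0.39 (95% interval -0.55 to -0.24, adjusted p = 0.00155, edgeR) in the paired fit, a level 23.9% lower, and -0.40 (95% interval -1.08 to 0.29, adjusted p = 0.953, edgeR) without the block. Grin1 was also called lower by DESeq2 with the block, and by edgeR with any pair left out, where adjusted p ranged from 0.00117 to 0.0214. Background shares of genes called lower were 5.52% in that DESeq2 fit and 3.98%, 2.95% and 4.25% without pairs 1, 2 and 3.

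Grin1 (ENSMUSG00000026959.13) spans chromosome 2, 25291181 to 25319187 in GRCm38, on the minus strand, with 18 exon blocks. On the opposite strand lies the antisense gene Grin1os, which shares 1307 bp of exon with it. Grin1os was at 100.5, 186 and 108 CPM with DMSO and 66.4, 139 and 86.7 CPM with GSK-126, the same order of libraries as for Grin1. In the paired fit it was also called lower, with a log2 fold change of -0.44 (adjusted p = 0.00141, edgeR). The strand setting of the counting is not given in the sources used here. How reads in the shared stretch were assigned is therefore not known, and the lower level of Grin1os may not be separate from that of Grin1.

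Grin2a, which encodes GluN2A, a subunit that granule neurons gain as they mature, had the largest fold change of the 6 members in the paired fit. Its level was 39.0, 83.3 and 52.4 CPM in DMSO replicates 1, 2 and 3, and 23.5, 47.6 and 34.7 CPM in GSK-126 replicates 1, 2 and 3. The groups overlapped because GSK-126 replicate 2 lay above DMSO replicate 1, although each treated library lay below the control library of its number. Control libraries averaged 58.2 ± 22.7 CPM and treated libraries 35.3 ± 12.1 CPM (SD, n = 3). Within pairs 1, 2 and 3, Grin2a fell by 0.72, 0.80 and 0.59 on the log2 scale. In the paired fit the log2 fold change was -0.71 (95% interval -0.93 to -0.50, adjusted p = 0.000147, edgeR), a level 39.0% lower, and without the block it was -0.73 (95% interval -1.49 to 0.04, adjusted p = 0.953, edgeR). The call was kept by DESeq2 with the block (adjusted p = 6.47e-05) and by edgeR with any pair left out (adjusted p from 4.47e-06 to 0.00805). Grin2a (ENSMUSG00000059003.12) lies on chromosome 16, 9567898 to 9995560, minus strand, and shares no exon with another gene of GENCODE M21.

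Grin2b, which encodes the early partner GluN2B, differed in the other direction and was not called. Its level was 147, 207 and 204 CPM in DMSO replicates 1 to 3 and 159, 237 and 215 CPM in GSK-126 replicates 1 to 3. Each treated library lay above its own control, by 0.11, 0.20 and 0.08 on the log2 scale, but the groups overlapped. Means were 186 ± 33.4 CPM and 204 ± 40.3 CPM (SD, n = 3). The log2 fold change of 0.13 was not called with the block (95% interval -0.02 to 0.28, adjusted p = 0.321, edgeR) or without it (95% interval -0.32 to 0.58, adjusted p = 0.961, edgeR). Grin2b (ENSMUSG00000030209.14) lies on chromosome 6, 135713233 to 136173511, minus strand. Its exons share at most 143 bp with any gene on the other strand, and the 3 such genes had 34 counts or fewer in every library.

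Grin2c, which encodes the low-conductance subunit of mature granule neurons, had the most uneven level of the 6. DMSO libraries 1, 2 and 3 were at 9.69, 37.3 and 12.4 CPM, and GSK-126 libraries 1, 2 and 3 at 6.37, 19.7 and 10.2 CPM. Replicate 2 stood apart in both groups, at 3.37 times the mean of the other DMSO libraries and 2.39 times that of the other GSK-126 libraries. Within pairs 1, 2 and 3 Grin2c fell by 0.57, 0.90 and 0.28 on the log2 scale, so its largest and smallest within-pair values differed more than those of Grin1, Grin2a or Grin3a. Its paired log2 fold change had a 95% interval of -0.99 to -0.28 (adjusted p = 0.022, edgeR). The call rested on pair 2. Without it the log2 fold change was -0.44 (adjusted p = 0.336, edgeR with the block), and DESeq2 with the block did not call it either (adjusted p = 0.115). Without DMSO replicate 2 and without the block, the log2 fold change turned to 0.12 (edgeR). Grin2c (ENSMUSG00000020734.13) lies on chromosome 11, 115249169 to 115267243, minus strand, and was read from 76 to 400 counts per library. It shares 91 bp of exon with Gm25837, a small RNA gene on the other strand with 43 counts or fewer.

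Grin2d, which encodes GluN2D, was the least abundant member, with 34 to 64 counts per library. Its level was 4.04, 3.54 and 5.21 CPM in DMSO replicates 1 to 3 and 4.85, 3.98 and 4.54 CPM in GSK-126 replicates 1 to 3. Groups overlapped, and replicate 2 was here the lowest DMSO and the lowest GSK-126 library. The paired log2 fold change was 0.08 with a 95% interval of -0.51 to 0.67 (adjusted p = 0.909, edgeR), which leaves room for a change of the size of Grin1 in either direction. Grin2d (ENSMUSG00000002771.12) lies on chromosome 7, 45831883 to 45878378, minus strand, and shares 643 bp of exon with the antisense gene Gm45441, which had 21 counts or fewer.

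Grin3a, which encodes the glycine-binding GluN3A of juvenile neurons, was the only member whose groups did not overlap, which 4.72% of all tested genes did in this direction. It was at 41.0, 46.0 and 41.1 CPM in the DMSO libraries and 35.3, 36.2 and 28.1 CPM in the GSK-126 libraries, replicates 1 to 3. Means were 42.7 ± 2.85 CPM and 33.2 ± 4.47 CPM (SD, n = 3). An exact permutation test of log2 CPM gave a two-sided p = 0.1, below which 3 against 3 libraries cannot go. Groups without overlap always give this value, so it adds nothing to the lack of overlap. The same test gave 0.4, 0.2, 0.5, 0.6 and 0.8 for Grin1, Grin2a, Grin2b, Grin2c and Grin2d. Pairs 1, 2 and 3 differed by -0.21, -0.34 and -0.54 on the log2 scale. The log2 fold change was -0.37 in the paired fit (95% interval -0.60 to -0.13) with an adjusted p of 0.0524 from edgeR, just past the threshold, and -0.36 without the block (unadjusted p = 0.0398, adjusted p = 0.953, edgeR). Replicate 2 was only 1.12 and 1.14 times the mean of the other libraries of its group. Grin3a (ENSMUSG00000039579.15) lies on chromosome 4, 49661611 to 49845744, minus strand, and overlaps no other exon.

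The remaining GluN3 gene, Grin3b, was at 5.65, 5.03 and 3.91 CPM in DMSO replicates 1 to 3 and 6.59, 9.48 and 5.34 CPM in GSK-126 replicates 1 to 3. Each treated library was above its own control, and the paired log2 fold change was 0.53 (95% interval 0.02 to 1.05, adjusted p = 0.214, edgeR), which was not called. Of its exons, 1059 bp overlap Tmem259 on the other strand, a gene with 851 to 1698 counts per library against 40 to 88 for Grin3b, so its counts are uncertain without the strand setting.

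**Figure D2:**
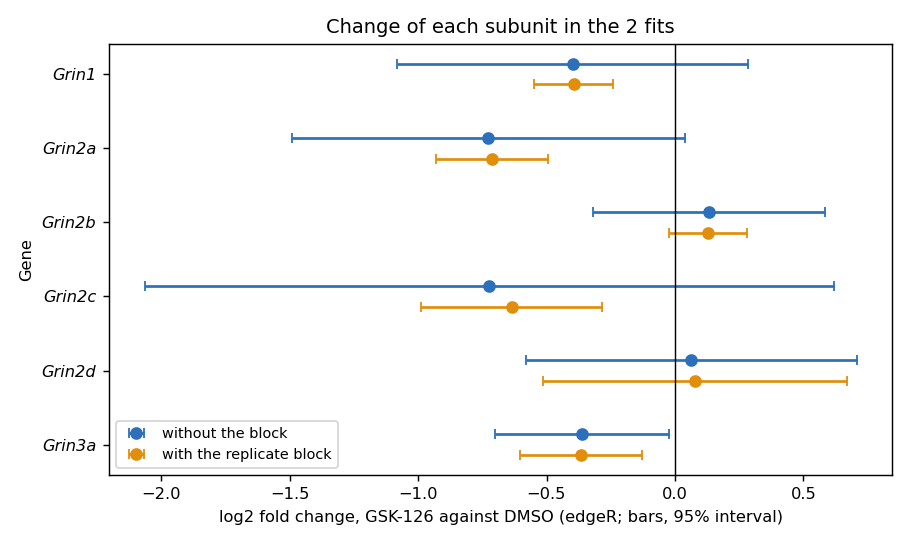
Log2 fold change of each subunit gene with GSK-126 against DMSO (points) and its 95% interval (bars) from edgeR without the block and with the replicate number as a block. Points of both fits lie close together, and the paired intervals of Grin1, Grin2a, Grin2c and Grin3a lie below 0, although Grin3a missed the adjusted threshold.

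Which GluN2 subunit accompanies GluN1 sets how a receptor behaves, so the GluN2 genes were also compared with each other inside each library, where library scaling cancels out. Log2 ratios of Grin2a to Grin2b were -1.91, -1.31 and -1.95 in DMSO replicates 1 to 3 and -2.73, -2.31 and -2.61 in GSK-126 replicates 1 to 3, computed from CPM + 0.5. The groups did not overlap. On the linear scale this ratio of CPM + 0.5 was 0.267, 0.404 and 0.259 with DMSO, and 0.15, 0.202 and 0.163 with GSK-126. The mean log2 ratio was -1.72 ± 0.36 with DMSO and -2.55 ± 0.22 with GSK-126 (SD, n = 3), a difference of -0.83 (two-sided exact permutation p = 0.1, which this design cannot undercut). Within pairs the difference was -0.83, -0.998 and -0.67 (exact sign-flip test over 3 pairs, p = 0.25, again the smallest possible). With 3 libraries in each group, neither exact test can reach 0.05. Groups without overlap always give 0.1 in the first, and 3 pairs in the same direction always give 0.25 in the second.

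The ratio of Grin2c to Grin2b was less separated. It was -3.86, -2.46 and -3.98 on the log2 scale in DMSO replicates 1 to 3 and -4.54, -3.56 and -4.34 in GSK-126 replicates 1 to 3, with GSK-126 replicate 2 above DMSO replicates 1 and 3. Its mean difference was -0.71 (two-sided exact permutation p = 0.3), lower in each of 3 pairs. For Grin2c to Grin2d, the log2 ratios were 1.17, 3.22 and 1.18 with DMSO and 0.36, 2.17 and 1.08 with GSK-126, a mean difference of -0.65 (two-sided exact permutation p = 0.5) that turned to 0.031 without DMSO replicate 2. Both ratios with Grin2c were highest in replicate 2 of each group.

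**Figure D3:**
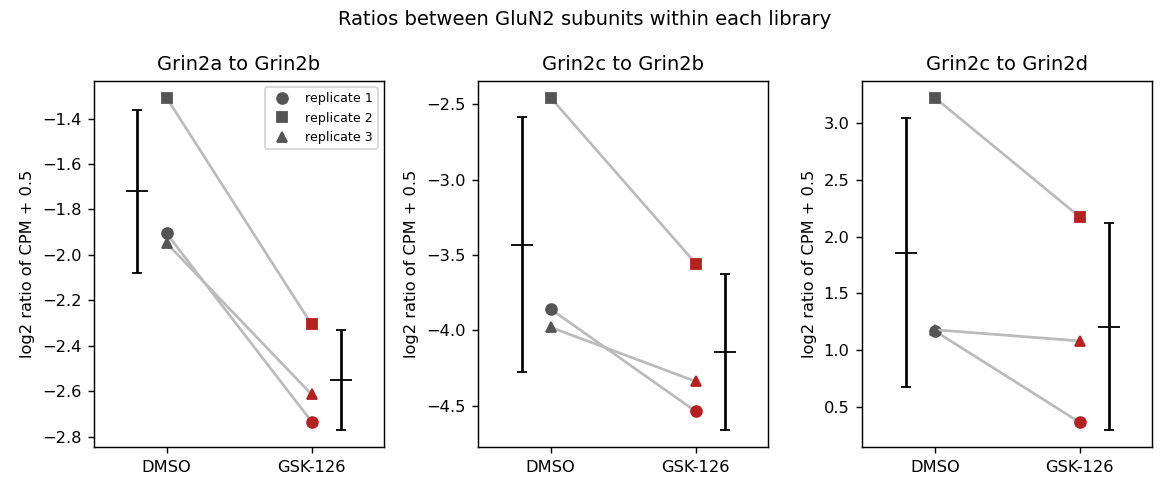
Log2 ratios of CPM + 0.5 between GluN2 genes in each library, with grey lines joining libraries of the same replicate number and black bars giving mean ± SD (n = 3). All 9 lines go down, but the groups are apart only for Grin2a to Grin2b, where the highest GSK-126 library (-2.31) is below the lowest DMSO library (-1.95).

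Levels of different genes were compared per length, as CPM per kilobase of exon (RPKM, over the union of a gene's exons). With DMSO the mean was 29.8 ± 9.86 RPKM for Grin1, 7.49 ± 1.34 for Grin2b, 3.93 ± 3.02 for Grin2c, 3.48 ± 0.232 for Grin3a, 3.25 ± 1.27 for Grin2a and 0.641 ± 0.129 RPKM for Grin2d (SD, n = 3). Grin1 stood above the other members and Grin2d below them, while Grin2c, Grin3a and Grin2a lay within each other's spread. With GSK-126 the order of means was Grin1 at 22.6 ± 7.54, Grin2b at 8.21 ± 1.62, Grin3a at 2.7 ± 0.364, Grin2c at 2.40 ± 1.37, Grin2a at 1.97 ± 0.673 and Grin2d at 0.67 ± 0.0659 RPKM. The middle of this order depends on the length used. Over the shortest transcript annotated as principal, a choice added after the data were seen, Grin2a at 13.2 ± 5.16 RPKM with DMSO moved above Grin3a at 5.74 ± 0.383 and Grin2c at 4.63 ± 3.55 RPKM.

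Grin2b took the largest share of summed GluN2 RPKM in every library. It was 55.8%, 39.8% and 57.0% in DMSO replicates 1 to 3 and 66.0%, 57.1% and 65.1% in GSK-126 replicates 1 to 3, so that the lowest GSK-126 library lay just above the highest DMSO library. Grin2a took 20.4%, 22.2% and 20.3% with DMSO and 13.5%, 15.9% and 14.6% with GSK-126, also without overlap. The mean Grin2a share was 21% ± 1.05 with DMSO (SD, n = 3) against 14.6% ± 1.19 with GSK-126 (two-sided exact permutation p = 0.1). For Grin2b the means were 50.9% ± 9.59 and 62.8% ± 4.88 (two-sided exact permutation p = 0.1). Grin2c took 18.1%, 35.4% and 17.2% with DMSO and 13.0%, 23.4% and 15.2% with GSK-126, which overlap (two-sided exact permutation p = 0.5). Grin2d took between 2.55% and 7.51%. The shares of a library add up to a whole, so these 4 tests are not independent. The permutation test always gives 0.1 for groups without overlap. With the shortest principal transcripts, the Grin2a share was 29.9% ± 3.44 with DMSO and 20.3% ± 2.13 with GSK-126, again without overlap, and that of Grin2c only 9.83% ± 4.98 and 6.90% ± 2.39.

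**Figure D4:**
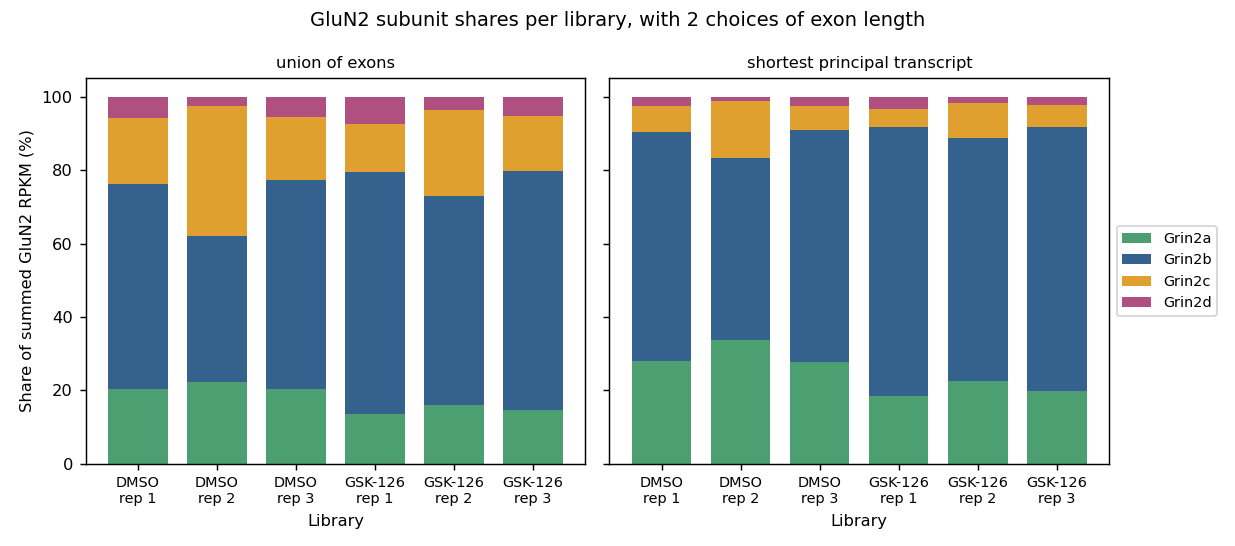
Stacked bars give the share of summed GluN2 RPKM (percent, axis from 0) taken by each GluN2 gene in each library, over the union of exons (left) and over the shortest principal transcript (right). In both panels the Grin2a segment is smaller in each GSK-126 library than in any DMSO library, and the Grin2c segment is largest in replicate 2 of each group.

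Replicate 2 stood highest in most of these genes. Across the 6 libraries, Pearson's r of log2 CPM was 0.95 between Grin1 and Grin2a, 0.96 between Grin1 and Grin2c and 0.94 between Grin2a and Grin2c, against 0.59 between Grin1 and Grin2b, 0.65 between Grin1 and Grin3a and -0.59 between Grin1 and Grin2d. These are descriptions over 6 points that share treatment, culture pair and depth. Among 11429 genes with a mean of at least 10 CPM, the 3 whose pattern over the 6 libraries was most like that of Grin1 were Sobp (r = 0.9985), Gpr155 (0.9984) and Srcin1 (0.9983). Zim3 (r = 0.9986) and Pclo (0.9984) were among the nearest to Grin2a, and Ociad1 (r = 0.9978), Tcte1 (0.9975) and Csmd3 (0.9969) came nearest to Grin2c. For Grin2b they were Gm15772 (r = 0.9929), Ankrd34b (0.9844) and Elmo1 (0.9830). With so many genes and so few libraries, values near 1 arise easily.

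At the synapse, GluN2 tails bind scaffolds of the postsynaptic density, and 23 genes for scaffolds and trafficking factors were read as a list. Of the 22 tested, 8 were called lower and 0 higher in the paired fit (5.09% and 3.35% of all genes), and 0 without the block, where all genes also gave 0 calls. The median log2 fold change was -0.14 in the paired fit. It was -0.20 over 14 pan-neuronal genes, of which 6 were called lower, and -0.31 over 15 granule neuron markers, of which 8 were. Lin7a, an adaptor of the Lin7 complex that carries GluN2B, fell by 0.71 on the log2 scale, from 98.6 ± 37.8 to 59.9 ± 20.9 CPM (SD, n = 3, adjusted p = 2.71e-05, edgeR with the block). Dlgap1, a link between PSD-95 and Shank, fell by 0.55 (adjusted p = 0.000336, edgeR with the block), and Dlg4, which encodes PSD-95 itself, by 0.42 (adjusted p = 0.000786, edgeR with the block). Cask, the partner of the Lin7 adaptors, fell by 0.25 (adjusted p = 0.041, edgeR with the block), a call that DESeq2 with the block did not make (adjusted p = 0.0511). Shank1, another of the 8, was not called by DESeq2 with the block either (adjusted p = 0.0901). The abundant Dlg2 (PSD-93) and Lin7c were not called, at -0.11 and -0.0080 on the log2 scale. Without pair 2, 5 of 22 genes were called lower and 0 higher, at 2.95% and 2% of all genes.

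Kinases, phosphatases and calcium effectors that act on or below the receptor made up a second list of 26 genes. Of 25 tested, 7 were called lower and 0 higher in the paired fit (5.09% and 3.35% of all genes), and 0 were called without the block. Among these 7, DESeq2 with the block did not call Csnk2b (adjusted p = 0.0828) or Ppp3r1 (adjusted p = 0.0544). The median log2 fold change in the paired fit was -0.17, beside the -0.20 of the pan-neuronal genes. Ppp3ca, a catalytic subunit of the calcium-activated phosphatase calcineurin, went from 898 ± 256 to 578 ± 118 CPM with no overlap between the groups (log2 fold change -0.62, adjusted p = 9.21e-06, edgeR with the block). Camk2b, a subunit of the calcium/calmodulin kinase that binds the GluN2B tail, fell by 0.51 (adjusted p = 5.94e-05, edgeR with the block). Rasgrf1, a calcium-dependent activator of Ras, went from 17.8 ± 4.48 to 9.96 ± 2.05 CPM, again without overlap (log2 fold change -0.83, adjusted p = 0.00276, edgeR with the block). The calmodulin gene Calm3, like Ppp3ca among the most abundant genes of the list, was not called, at -0.09 on the log2 scale. When pair 2 was left out, 5 of 24 genes were called lower and 0 higher, at 2.95% and 2% of all genes.

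Genes that make or carry the co-agonists serine and glycine were mostly not called. Of 11 tested of 12, 2 were called higher and 0 lower in the paired fit (3.35% and 5.09% of all genes), with a median log2 fold change of 0.02, and 0 without the block. Slc1a5, a transporter of neutral amino acids, rose from 32.1 ± 12.6 to 43.8 ± 15.5 CPM (log2 fold change 0.46, adjusted p = 0.0147, edgeR with the block). Shmt1, a cytosolic enzyme that interconverts serine and glycine, rose from 8.77 ± 1.07 to 14.1 ± 2.48 CPM (log2 fold change 0.68, adjusted p = 0.0349, edgeR with the block), and its mitochondrial counterpart Shmt2 had 0.30 (adjusted p = 0.0585, edgeR with the block). Srr, the serine racemase that makes D-serine, was not called at -0.06, nor were Phgdh and Psat1 of serine synthesis at 0.02 and 0.11. DESeq2 with the block did not call Slc1a5 (adjusted p = 0.0502) and gave Shmt1 no adjusted p. Without pair 2, 1 of 11 genes was called higher by edgeR, at 2% of all genes.

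**Figure D5:**
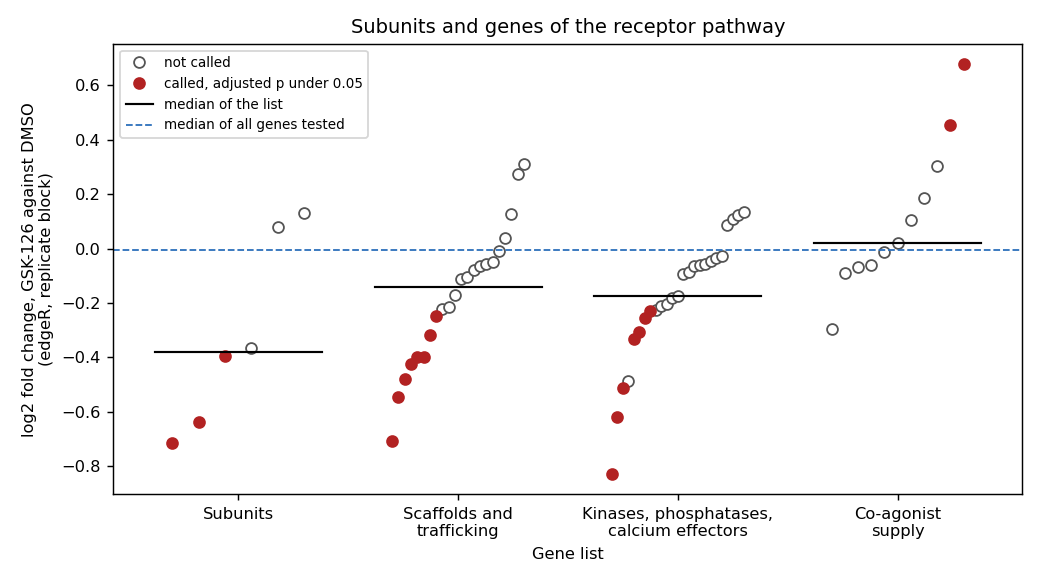
Log2 fold change in the paired fit for each tested subunit, scaffold, effector and co-agonist gene (points, filled where called), with the median of each list (black lines) and of all genes tested (dashed line, -0.0056). Filled points of the first 3 lists lie below 0 and both filled points of the co-agonist list lie above it.

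Other cells share these cultures, so markers were read beside the subunits, with calls from the paired fit, where 5.09% of all genes were called lower and 3.35% higher. The 15 granule neuron markers, led by Zic1, summed to 5272 to 8499 CPM with DMSO and 4205 to 6837 CPM with GSK-126, with 8 called lower and 1 higher. The summed level differed between GSK-126 and DMSO by -0.33, -0.31 and -0.36 on the log2 scale in pairs 1, 2 and 3, and that of 14 pan-neuronal genes (6 called lower, 2 higher) by -0.22, -0.22 and -0.20, beside -0.72, -0.80 and -0.59 for Grin2a and -0.29, -0.37 and -0.53 for Grin1. Single granule neuron markers ran from -1.95 (Slc17a7) to 0.33 (Barhl1) in the paired fit, with 11 of 15 below 0. Gabra6, Etv1 and Cbln3 were at -1.19, -1.17 and -0.90, beside -0.71 for Grin2a. Astroglial markers, of which Gfap was the most abundant, summed to 2380 to 7174 CPM with DMSO and 2246 to 7588 CPM with GSK-126, and 2 of 10 were called higher. Their sum in replicate 2 was 0.423 times the mean of the other DMSO libraries and 0.387 times that of the other GSK-126 libraries, while that of the granule neuron markers was 1.5 and 1.53 times. Replicate 2, the library pair highest in Grin1, Grin2a and Grin2c, was thus also the lowest in astroglial and the highest in granule neuron markers.

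Of 11 tested markers of Purkinje cells and GABAergic interneurons, 4 were called lower and 0 higher, at 5.09% and 3.35% of all genes, and 7 of 11 had a log2 fold change below 0. The whole list of 12 summed to between 321 and 379 CPM with DMSO and between 249 and 324 CPM with GSK-126. The genes called included Gad1, Gad2 and Slc32a1, which make and load GABA, although DESeq2 with the block did not call Gad2 (adjusted p = 0.124). Calb1, Pvalb, Pcp4 and Car8 had log2 fold changes of 0.45, 0.51, 0.73 and 0.30 and were not called, while Skor2 was at 0 counts in every library and Pcp2 averaged 2.34 CPM with DMSO. Cycling progenitor markers (1 of 9 tested called higher) summed to 568 to 895 and 631 to 1012 CPM, with Atoh1, the factor of granule neuron progenitors, at 7 counts or fewer. Unipolar brush cell markers summed to 28.1 to 34.8 and 15.8 to 30.6 CPM, with 1 of 4, Eomes, called lower by edgeR and given no adjusted p by DESeq2 with the block. Oligodendrocyte lineage markers (1 of 10 called higher) summed to 517 to 900 and 604 to 907 CPM, and microglial markers (2 of 8 tested called higher, Trem2 at 0) to 203 to 431 and 283 to 533 CPM. Endothelial and fibroblast markers (3 of 9 tested called higher, Cldn5 at 12 counts or fewer) summed to 5157 to 7172 and 6422 to 7893 CPM, led by Col1a1. The part of cell composition in the levels of the 6 subunit genes was not tested.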

How the data were processed

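Polyadenylated RNA of CGN cultures was sequenced as 150 bp paired-end reads, in 3 DMSO and 3 GSK-126 libraries. The authors trimmed reads with Trimmomatic 0.38, aligned them with STAR 2.7.2b to GRCm38.p4, counted them on exons with HTSeq and deposited raw counts per gene, with no normalization. The strand setting and the Gencode release are not given in the sources used here. The 55341 symbols are exactly those of GENCODE M21, which gave identifiers, coordinates, exon lengths and overlaps. Counts on genes ranged from 7407189 to 13092763 per library, and lines that name no gene, left out of all tests, held 58.7% to 60.7% of reads. No library was a copy of another (chi-square per degree of freedom of 8.4 or more).

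Counts were tested across all genes with edgeR 4.0.16 in R 4.3.3 (TMM, filterByExpr, estimateDisp, quasi-likelihood test, no block), with calls at a Benjamini-Hochberg adjusted p under 0.05. DESeq2 1.42.0 was an alternative. The labels number replicates 1 to 3 in both groups and do not say what a number shares. Deviations of log2 CPM from group means correlated at 0.561, 0.634 and 0.487 between libraries of the same number and at 0.00638 or less between others, so the numbers were taken as pairs and the fit with the replicate block is given beside the results. The pairing comes from this check of the data. Deviations cancel out within a group, so the low values between other numbers are not separate support for it. Whether a numbered culture and its partner came from the same litters is not stated. Ratios used log2 of CPM + 0.5 and exact permutation tests. Without the block, p-values measure the spread between cultures of pooled litters. With it, they measure the spread of the differences within pairs, with dispersion estimated over many genes.

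The fits were tested on simulated data. Libraries of a pair shared their mean levels there by design, so the simulation cannot show whether the pairing holds in these libraries. The members, gene lists and tests were chosen with earlier results of these data known. Genes named from the lists are the 3 with the smallest p in the paired fit and the 3 most abundant. Named markers are the most abundant, those at or near 0 and others chosen after their values were seen. These others are 3 called GABAergic genes, Eomes, Calb1, Pvalb, Pcp4, Car8, Pax2, Itpr1, Slc17a7, Gabra6, Etv1, Cbln3 and Barhl1. A few genes that the rule names are not reported here. Grin1os, Tmem259, Gm45441 and Grin3b were named for overlap or family. Shank1, Csnk2b and Ppp3r1 were named because DESeq2 with the block did not call them. Alternatives were other normalizations and filters, DESeq2, the block, other pseudocounts, and leaving out each library or pair. Combining the block with another normalization or filter, and the shorter exon length, were added after the data were seen.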

Additional observations from a re-analysis of the deposited data

How the results depend on the processing

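None of the 6 genes was called without the block under edgeR or DESeq2, and none was called higher under any alternative. With the block, 3 were called lower by edgeR (5.09% of all genes) and 2 by DESeq2 (5.52%). Leaving out pair 2 gave 2 (2.95%), and leaving out pair 1 or pair 3 gave 3 (3.98% and 4.25%). Total counts, upper-quartile scaling and a minimum of 10 counts in every library, each with the block, also gave 3. Under these, genes called lower numbered 707 of 16729, 698 of 16729 and 803 of 15127. In the order edgeR with the replicate block, DESeq2 with it, without pairs 1, 2 and 3, then the minimum of 10 counts, total counts and upper-quartile scaling, the log2 fold change of Grin1 was -0.39, -0.39, -0.43, -0.40, -0.33, -0.38, -0.36 and -0.36 and that of Grin2a -0.71, -0.71, -0.69, -0.66, -0.77, -0.69, -0.68 and -0.68, all called. Grin2c was called at -0.64 with the block, -0.64 and -0.79 without pairs 1 and 3, and -0.62, -0.60 and -0.60 under the last 3 settings. Grin3a was not called under any of the 8 paired settings (adjusted p from 0.0524 to 0.256).

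With single libraries left out and no block, the log2 fold change ranged from -1.26 to 0.12 for Grin2c, the highest value and the only reversal being that without DMSO replicate 2, and from -0.052 to 0.24 for Grin2d, reversed without the same library. Grin2d also reversed, to -0.0056, with the block and without pair 1. The ranges were -0.68 to -0.11 for Grin1, -0.99 to -0.38 for Grin2a, 0.0055 to 0.30 for Grin2b and -0.41 to -0.25 for Grin3a, none of them called. The log2 ratio of Grin2c to Grin2d ranged from -1.14 to 0.031, the reversed value again being that without DMSO replicate 2. No other ratio reversed with a library left out or a pseudocount of 0.1 or 2 CPM. The cause of the reversals was not tested. Depth limits Grin2d and Grin3b most, with 34 to 88 counts per library, and exon length limits the GluN2 shares.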
